A study of Mus musculus with 8 samples.

Results

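Fatty acid binding proteins are small cytosolic carriers of long-chain fatty acids, and 5 of their genes, Fabp1, Fabp2, Fabp4, Fabp5 and Fabp7, were examined in mouse liver RNA. They were taken by gene symbol from a table of 24547 genes, and all 5 passed the filter on low counts. The family was chosen with its values in these libraries already known, led by the difference in Fabp1 between treated and control animals. Differences of the 5 genes between the groups are therefore given as a description, with no test. The animals were ICR mice, an outbred strain, and the samples were liver tissue. The treated group (4 libraries) was dosed intragastrically for 30 days with high-dose Psoraleae Fructus, a decoction made from dried Psoralea corylifolia fruit, and the control group (4 libraries) received saline. No genetic change is named for either group, and sex, age, hour of collection and dose by mass are not given in the labels. The labels do not say that each library came from a separate animal, so p-values measure only the spread between these libraries.

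Each member of the family folds into a barrel that encloses its lipid ligand, and members differ in the cells that make them. Fabp1 is the liver form, abundant in hepatocytes, where it carries fatty acids and also binds bile acids and heme, and its gene is a classical target of PPARα, a nuclear receptor activated by fatty acids. Fabp2 is the form of enterocytes, Fabp4 that of adipocytes, also made by some macrophages and endothelial cells, Fabp5 that of keratinocytes and macrophages, and Fabp7 that of glia, found in liver in Kupffer cells, the resident macrophages.

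The 5 genes each have 4 exons in their main transcript. Fabp1 lies on chromosome 6 (71199827 to 71205023, plus strand), Fabp7 on chromosome 10 (57784881 to 57788450, plus strand), and the other 3 on chromosome 3, namely Fabp5 (10012548 to 10016607, plus strand), Fabp4 (10204088 to 10208576, minus strand) and Fabp2 (122895072 to 122899506, plus strand), all on GRCm38. RefSeq promoter sequences (GRCm38.p6) were matched for Fabp1, Fabp2 and Fabp7. The stretches before the annotated starts of the genes with the highest levels, Fabp1 and Fabp2, are shown, since Fabp1 separated the groups and Fabp2 did not. Both are on the plus strand. The Fabp1 stretch is chr6:71199629-71199826 and the Fabp2 stretch is chr3:122894822-122895071. Capitals mark a direct repeat with a spacer of 1 base, the arrangement to which PPAR and its partner RXR bind, searched on both strands as AGGTCANAGGTCA with up to 1 mismatch.
Fabp1: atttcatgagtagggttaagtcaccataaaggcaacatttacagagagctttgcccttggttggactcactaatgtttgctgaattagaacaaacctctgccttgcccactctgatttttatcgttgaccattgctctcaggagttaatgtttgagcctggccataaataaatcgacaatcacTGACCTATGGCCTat
Fabp2: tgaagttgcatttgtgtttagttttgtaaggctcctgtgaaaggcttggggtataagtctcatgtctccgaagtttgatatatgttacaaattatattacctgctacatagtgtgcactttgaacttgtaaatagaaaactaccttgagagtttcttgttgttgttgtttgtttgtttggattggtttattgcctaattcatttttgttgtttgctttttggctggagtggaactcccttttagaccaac
The match in Fabp1 lies on the minus strand from position -67 to -55, counted from the RefSeq start, and 0.554% of 32851 promoter windows of the same length held such a match. The Fabp2 and Fabp7 windows held none. The repeat unit AGGTCA alone occurred on either strand in 16.3% of windows. It was found at 2 places in Fabp1, one inside the direct repeat and the other at position -9 to -4 in bases not shown, at 1 place in Fabp7 and at none in Fabp2. Neither the E-box CACGTG nor the D-box TTATGTAA, letters bound by clock proteins, occurred in the 3 windows. These matches describe letters and do not show binding.

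Library totals ran from 15864399 to 20159132 counts, and Alb and Apoa1, defining hepatocyte products, stood at 116450 ± 21782 against 117620 ± 8534 CPM and 6356 ± 1850 against 7070 ± 2841 CPM in control and treated libraries (mean ± SD, n = 4 each). CPM here are counts scaled for depth with TMM factors. Control 4 stood apart from the other controls: Cyp4a14, a fatty acid hydroxylase and PPARα target, was at 1.94 CPM there against 2045 to 2686 in controls 1 to 3, and Dbp, a clock output gene, was at 35.6 CPM against 0.155 to 2.04, both genes chosen after their values were seen. Control 1 stood apart in other genes. The hepatocyte marker Tat was at 5732 CPM there against 513 to 1056 in controls 2 to 4. Lpin1, a gene of triglyceride synthesis, was at 1471 CPM against 88.0 to 332. Both were chosen after their values were seen. Control 2 held the highest macrophage marker level, given below. Over all 12861 genes tested with edgeR, 9.21% were called at an adjusted p under 0.05, 5.46% higher and 3.75% lower in treated libraries.

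Fabp1 was the most abundant member in every library and was higher in all 4 treated libraries. Its control values were 419, 831, 887 and 971 CPM in libraries 1 to 4, and its treated values 1991, 2295, 3824 and 2463 CPM. The groups did not overlap, with control 1 the lowest library and treated 3 the highest. The means were 777 ± 246 and 2643 ± 811 CPM (SD, n = 4 each), a 3.40-fold difference (log2 1.77, SE 0.30). The spread relative to the mean was alike in the groups, at 31.6% and 30.7%. Fabp1 reads per library ran from 6968 in control 1 to 62984 in treated 3, at which counting error is small beside the spread between libraries.

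**Figure D1:**
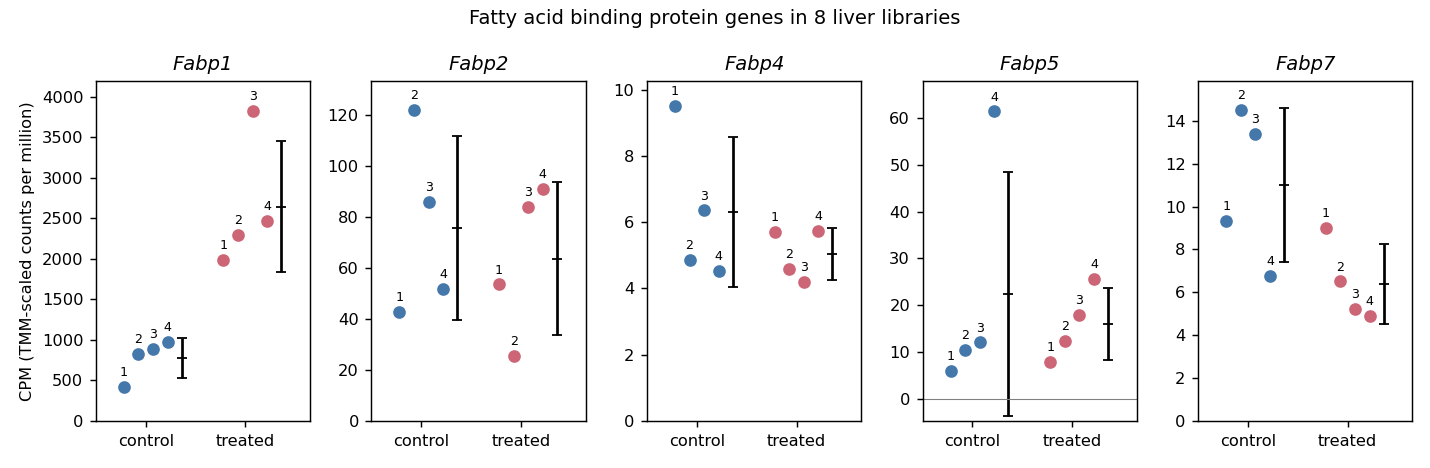
CPM (vertical axes, linear, with a scale for each gene) of the 5 genes in 4 control and 4 treated libraries, with library numbers above the points and the mean ± SD beside them. Only the Fabp1 panel shows groups that do not overlap, and control 4 stands alone in the Fabp5 panel at 61.5 CPM.

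Fabp2 showed no separation of the groups. Its values were 42.7, 122, 86.1 and 52.0 CPM in controls 1 to 4 and 53.6, 25.7, 84.2 and 91.0 CPM in treated libraries 1 to 4. Control 2 was the highest and treated 2 the lowest of the 8 libraries, and the remaining values of both groups were interleaved. The log2 difference was -0.25 (SE 0.46), and it was 0.09 without control 2 and 0.03 without treated 2. The ratio of Fabp1 to Fabp2 on a per-length scale does not depend on scaling between libraries. It ran from 11.8 to 32.6 in controls and from 47.2 to 156 in treated libraries. Of the intestinal epithelium markers, Alpi and Muc2 had no count in any library, where 0 counts allow up to 3 per library, Cdx2 and Lct had at most 1 and Olfm4 at most 2. The highest summed level of the 7 markers analysed was 5.41 CPM, below the lowest Fabp2 value.

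Fabp7 was lower in treated libraries on average, with overlap. It stood at 9.31, 14.5, 13.4 and 6.77 CPM in controls 1 to 4 and at 9.0, 6.51, 5.22 and 4.90 CPM in treated libraries 1 to 4. Control 4 lay among the treated values and treated 1 close to control 1. The log2 difference was -0.78 (SE 0.28). It was -0.95 without control 4. Macrophage markers were mostly lower in treated libraries too: of 15 tested, 14 had a log2 difference below 0 (median -0.73). Timd4 and Adgre1, surface proteins of resident macrophages, fell from 27.4 ± 15.1 to 9.78 ± 2.70 and from 44.5 ± 15.5 to 20.1 ± 6.53 CPM (edgeR adjusted p = 0.0439 and 0.0473). Each was called in 1 of 8 fits that left out a library. The summed level of the 15 markers ran from 713 to 1687 CPM in controls and from 484 to 943 CPM in treated libraries. It was highest in control 2 and, among controls, lowest in control 4, as was Fabp7. In treated libraries the 2 orders differed. There the sum was 796, 943, 484 and 705 CPM in libraries 1 to 4, while Fabp7 was highest in treated 1 and lowest in treated 4. In bulk tissue, fewer cells of a type and less RNA per cell cannot be told apart, and the part of these cells in the Fabp7 difference was not tested.

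Fabp4 was among the lowest members. It stood at 9.49, 4.86, 6.35 and 4.51 CPM in controls 1 to 4 and at 5.70, 4.58, 4.19 and 5.73 CPM in treated libraries 1 to 4, from 69 to 158 reads per library. Control 1 alone was above the rest, and the other 7 libraries lay between 4.19 and 6.35 CPM. The log2 difference of -0.32 (SE 0.26) was -0.05 without control 1. Control 1 also held the highest summed level of endothelial markers, 903 CPM, where controls 2 to 4 had 685 to 722 and treated libraries 459 to 663. Of 13 endothelial markers, 11 had a log2 difference below 0 (median -0.30), and Pecam1 and Tek, surface proteins of endothelium, fell by 0.86 (SE 0.19) and 0.81 (SE 0.22) on the log2 scale (edgeR adjusted p = 0.0273 and 0.0499), calls kept in 3 and 1 of 8 fits that left out a library. Of adipocyte genes, Plin1, Retn and Cidea had no count in any library, Cfd at most 1 and Adipoq at most 2. The 4 tested adipocyte markers were present in liver RNA, and edgeR called none. Car3, a carbonic anhydrase, was at 2911 CPM in control 4 and at 20.3 to 729 CPM in controls 1 to 3, and it made up most of the summed level of the markers, which ran from 56.7 to 2924 CPM in controls and from 392 to 1090 CPM in treated libraries. Plin4, a lipid droplet protein, stood at 11.9 ± 9.73 against 10.9 ± 10.9 CPM. Outside the naming rule, the lipase gene Lipe stood at 8.98 ± 2.0 against 5.83 ± 1.59 CPM, and the adrenergic receptor gene Adrb3 at 2.20 ± 1.45 against 5.16 ± 0.36 CPM, with groups that did not overlap. The part of endothelial or adipocyte RNA in the Fabp4 values was not tested.

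Fabp5 was set by 1 library. It stood at 5.95, 10.4, 12.0 and 61.5 CPM in controls 1 to 4 and at 7.85, 12.3, 17.9 and 25.7 CPM in treated libraries 1 to 4. Control 4 was above every other library, and the remaining 7 values overlapped between groups. With all libraries the log2 difference was -0.50 (SE 0.77), and without control 4 it was 0.75 (SE 0.42), so its direction turned with that library. Without controls 2 and 4 it was 0.83 (SE 0.53). Macrophage markers, whose summed level was lowest among controls in control 4, did not share this peak. The Fabp5 and Fabp4 genes lie near each other on chromosome 3, and Fabp4 was at its lowest control value in control 4.

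**Figure D2:**
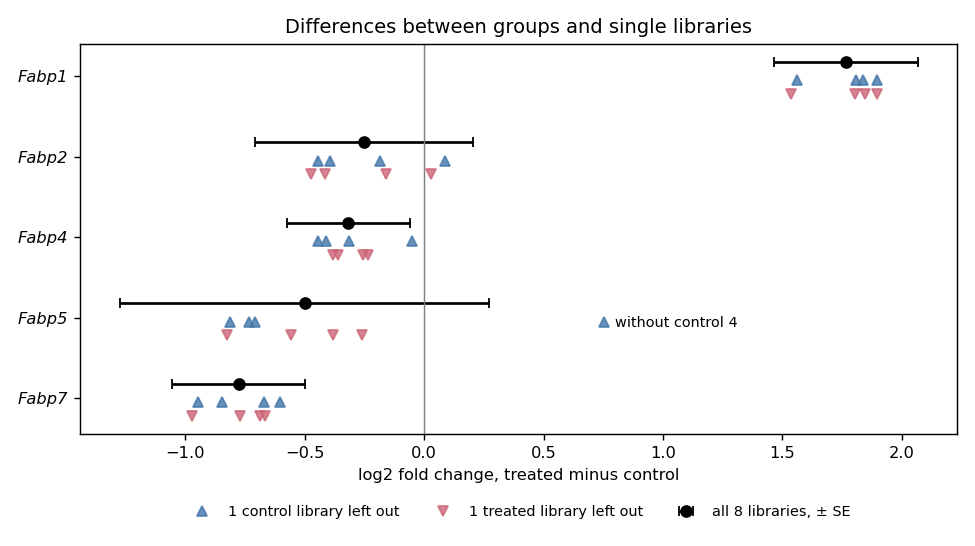
Log2 fold change (horizontal axis, treated minus control) of each gene with all 8 libraries (black, ± SE) and with 1 control or 1 treated library left out (triangles). Fabp1 stays between 1.54 and 1.90, while Fabp5 turns from -0.50 to 0.75 without control 4.

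Levels between genes were compared per length. The length used in the deposited FPKM equals the main transcript for Fabp1 (553 bases) and Fabp2 (965 bases), but it is 4489 bases for Fabp4, 3567 for Fabp5 and 1250 for Fabp7, against main transcripts of 896, 987 and 804 bases. These longer values equal the merged exons of all annotated transcripts, which for Fabp4 and Fabp5 include a retained intron. Deposited FPKM in controls were 1436 ± 477 for Fabp1, 81.4 ± 44.1 for Fabp2, 9.03 ± 3.39 for Fabp7, 6.34 ± 7.26 for Fabp5 and 1.41 ± 0.44 for Fabp4 (SD, n = 4). On the same scale but with the length of the main transcript, control levels were 22.9 ± 26.2 for Fabp5, 14.0 ± 5.27 for Fabp7 and 7.07 ± 2.22 for Fabp4. Fabp5 and Fabp7 thus changed places with the length chosen, and they overlapped on this scale, as did Fabp7 and Fabp4. Fabp1 and Fabp2 overlapped with no other member in controls on the FPKM scale, Fabp2 being at least 42.3 there. On the main-transcript scale the lowest Fabp2 value, 42.3 in control 1, was below Fabp5 in control 4 at 62.0. In treated libraries the levels on this scale were 4671 ± 1250 for Fabp1, 64.0 ± 28.7 for Fabp2, 15.8 ± 7.34 for Fabp5, 7.88 ± 2.44 for Fabp7 and 5.55 ± 0.91 for Fabp4, and the last 3 overlapped as neighbours in this order. Fabp1 made up 90.3% to 93.1% of the summed level of the 5 genes in controls and 97.1% to 98.8% in treated libraries. The sum of the other 4 ran from 69.3 to 178 in controls and from 54.4 to 129 in treated libraries, and these ranges overlapped. Fabp1 alone among the 5 thus accounts for the higher sum in treated libraries.

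Of the 5 members, 1 (Fabp1) was called and its groups did not overlap. Over all genes tested, 9.21% were called and 18.9% had groups that did not overlap. The members were chosen on this contrast, so nothing is read from that count. Of other genes of the family that did not pass the filter, Fabp3, the heart form, had at most 3 counts in a library, Fabp12 at most 7 and Rbp7 at most 3.

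The genes nearest to Fabp1 in pattern were sought among 8983 genes of at least 5 CPM on average, by the root-mean-square difference between their log2 CPM, each centred on the mean of the gene over the 8 libraries. The nearest were Mgst3, a membrane-bound glutathione transferase (difference 0.35), Stbd1, a glycogen-binding protein (0.35), the monocarboxylate carrier gene Slc16a11 (0.37), the respiratory chain subunits Ndufa3 (0.38) and Uqcr11 (0.38) and Acad10, of the acyl-CoA dehydrogenase family (0.39). Fabp1 itself departed from its own mean by 0.99 on this measure. Their log2 differences between groups, from 1.09 for Acad10 to 1.6 for Slc16a11, were all smaller than that of Fabp1. With offsets for the length and GC content of genes, Uqcr11 went from 1.39 to 0.69, Ndufa3 from 1.24 to 0.89 and Slc16a11 to 1.19. Mgst3 went from 1.29 to 1.03 and Stbd1 from 1.20 to 1.06, Acad10 stayed at 1.09, and Fabp1 was at 1.41. The search for likeness used values without these offsets. Mgst3 and Stbd1 shared the low value of control 1, at 4.45 and 14.7 CPM, where controls 2 to 4 held 7.45 to 16.7 and 32.8 to 45.6 CPM. In control 4 Mgst3 was at 16.7 CPM, close to treated 4 at 18.5 CPM, whereas Fabp1 was not.

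**Figure D3:**
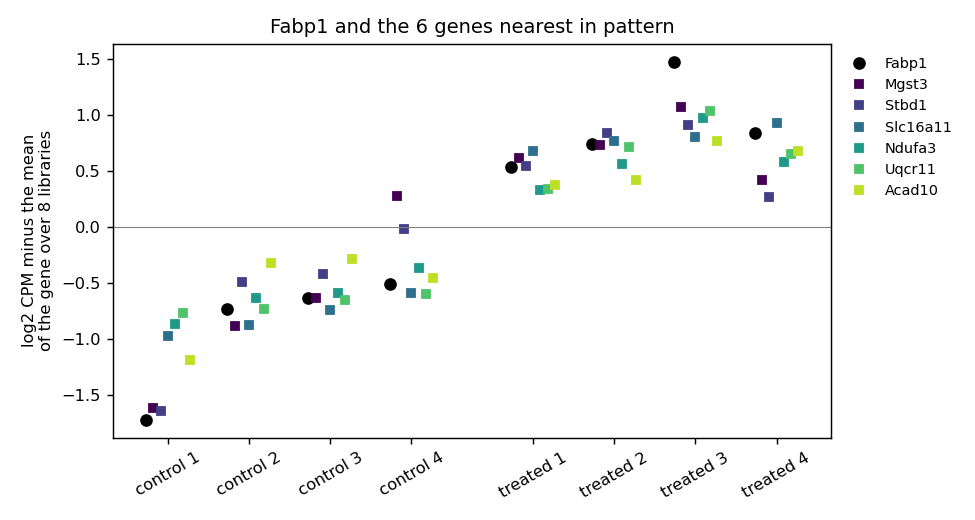
Log2 CPM minus the mean of each gene over the 8 libraries (vertical axis) for Fabp1 (black circles) and the 6 genes nearest in pattern (squares). Control 1 is the lowest library for all 7 genes, and treated 3 the highest for Fabp1 and 5 of the 6 genes.

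For the other members the nearest genes differed. Nearest to Fabp5 were Cyp51 and Msmo1, enzymes of cholesterol synthesis (0.30 and 0.35), and Slc23a1, a vitamin C transporter (0.30). All shared the peak in control 4, where Cyp51 was at 136 CPM and in controls 1 to 3 at 14.5 to 40.0. Nearest to Fabp7 were Adgre4, an adhesion receptor of macrophages (0.16), Itpripl2 (0.17) and the kinase gene Stk17b (0.18). Nearest to Fabp4 were Atl2 (0.11), which shapes the endoplasmic reticulum, Megf9 (0.12) and Chst15 (0.13), and nearest to Fabp2 was Pglyrp2 (0.31), a secreted amidase of bacterial cell wall, followed by Tpm3 (0.36) and Creld2 (0.37). These distances rest on 8 libraries and describe likeness only.

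**Figure D4:**
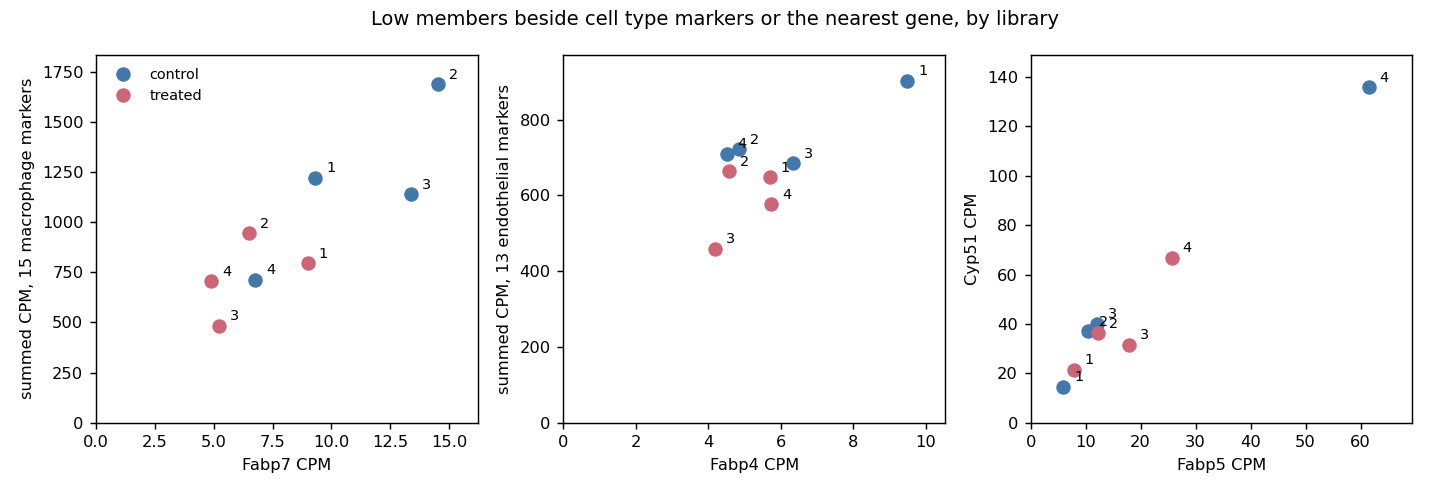
CPM of Fabp7, Fabp4 and Fabp5 (horizontal axes) against the summed CPM of macrophage markers, the summed CPM of endothelial markers and the CPM of Cyp51 (vertical axes), 1 point per library with its number. Control 2 is highest for the macrophage markers and Fabp7, control 1 for the endothelial markers and Fabp4, and control 4 for Cyp51 and Fabp5.

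Among genes around the family, 7 lists of lipid handling, regulators and clock genes held 109 tested genes, of which 13 rose and 5 fell. These 18 were 16.5% of the lists, beside 9.21% called over all genes tested. With offsets for the length and GC content of genes, 3 were called higher and 3 lower, 5.5% of the lists beside 4.18% over all genes. Among 11 tested genes of fatty acid uptake and activation, Slc27a1, a fatty acid transporter, rose from 6.12 ± 1.22 to 11.3 ± 2.67 CPM (edgeR adjusted p = 0.0368), and Acsl4, an acyl-CoA synthetase of arachidonate, fell by 0.61 (SE 0.16, adjusted p = 0.0429). The list median was 0.01 on the log2 scale against -0.04 over all genes tested. Slc27a2 stood at 1144 ± 316 against 1755 ± 298 CPM and Cd36, the scavenger receptor for fatty acids, at 79.9 ± 57.5 against 75.2 ± 14.2 CPM, neither called and both chosen after their values were seen. Among 12 other lipid carriers, Stard10 and Pctp, both carriers of phospholipids, rose by 0.71 (SE 0.16, adjusted p = 0.0294) and 1.51 (SE 0.35, adjusted p = 0.0337), with a list median of 0.18. Pctp ran from 6.67 to 16.0 CPM in controls and from 20.8 to 47.2 CPM in treated libraries. Dbi, the acyl-CoA binding protein, stood at 278 ± 171 against 267 ± 61.0 CPM and Scp2, a peroxisomal sterol carrier, at 1909 ± 242 against 2151 ± 180 CPM, also chosen after their values were seen.

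Of 30 PPARα targets and fatty acid oxidation genes, edgeR called 3 higher and none lower, 10.0% beside the 9.21% over all genes, and 14 had a difference below 0, with a median of 0.07. Without control 4, 5 were called higher and 4 lower, 30.0% beside 17.8% over all genes. Acaa1a, a peroxisomal thiolase, was at 145 to 173 CPM in controls and at 282 to 420 CPM in treated libraries. Its paralog Acaa1b rose by 1.12 (SE 0.23, adjusted p = 0.0202), reads of which could be shared, and Acadvl, a mitochondrial dehydrogenase, by 0.48 (SE 0.13, adjusted p = 0.0478). The classical target Cyp4a14 was at 119 to 848 CPM in treated libraries and at 2045 to 2686 CPM in controls 1 to 3, but at 1.94 CPM in control 4, below every treated library. Pdk4, a kinase that restrains glucose oxidation, stood at 59.3 ± 45.5 against 9.67 ± 4.30 CPM (log2 -2.61, SE 0.80, adjusted p = 0.085). Its value in control 4, 6.56 CPM, lay within the treated range of 6.5 to 15.7 CPM. Neither gene was called with all libraries, and both were chosen after their values were seen.

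Of 18 nuclear receptors and liver factors that include known regulators of Fabp genes, 4 rose and none fell with edgeR, with a median of 0.08. That is 22.2% called higher, beside 5.46% over all genes tested. The count was 0 without treated 3, beside 1.4% of all genes called in either direction. It was 2 without control 2 or control 3 (11.1% each, beside 4.49% and 3.04% in either direction). With the length and GC offsets it was 1 (5.56%, beside 4.18% in either direction). Called higher over all genes in these fits were, in that order, 410 of 13019, 284 of 13040 and 341 of 12858. Without control 1 the count in the list was 5 (27.8%, beside 8.58% in either direction). Pparg, the adipocyte-type PPAR, was at 3.43 to 7.60 CPM in controls and at 11.5 to 15.2 CPM in treated libraries (adjusted p = 0.0126). Rxrb, a partner of PPARs, rose by 0.70 (SE 0.14, adjusted p = 0.0177) and Cebpa, a factor of hepatocyte differentiation, by 0.90 (SE 0.20, adjusted p = 0.0262). The fourth was Foxa3, a forkhead factor outside the naming rule, at 47.5 ± 9.73 against 82.5 ± 14.8 CPM. Ppara itself stood at 145 ± 8.41 against 150 ± 11.7 CPM (log2 0.04, SE 0.11), chosen after its values were seen.

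Of 18 tested genes of triglyceride synthesis and lipoprotein export, Apoa4, an apolipoprotein, and Cideb, a lipid droplet protein of lipoprotein loading, rose by 1.20 (SE 0.23, adjusted p = 0.0179) and 0.68 (SE 0.18, adjusted p = 0.0451), and Mttp, which loads lipid onto apolipoprotein B, fell by 0.52 (SE 0.13, adjusted p = 0.0382), with a median of -0.17. Plin2, the main lipid droplet coat protein of hepatocytes, ran from 453 to 1076 CPM in controls and from 255 to 433 CPM in treated libraries, not called (adjusted p = 0.0742) and chosen after its values were seen. Of 19 clock genes, 1 rose and 3 fell, 21.1% beside the 9.21% over all genes, with a median of 0.62: Per2 rose by 1.16 (SE 0.23, adjusted p = 0.0185), and Npas2 and Arntl fell, with log2 differences of -3.87 (SE 0.62) and -2.38 (SE 0.37, adjusted p = 0.00993 each). Npas2 was low, at 1.36 to 9.62 CPM in controls and 0.30 to 0.53 CPM in treated libraries. Over the 19 alternative fits its log2 difference ran from -4.20 to -0.96. Cry1, outside the naming rule, also fell (log2 -1.12, SE 0.29, adjusted p = 0.0437). Several clock-related values of control 4 lay toward the treated libraries. Arntl was at 10.8 CPM there, between the 23.8 to 31.3 CPM of controls 1 to 3 and the 3.45 to 7.17 CPM of treated libraries. For Per1 and Ciart, chosen after their values were seen, control 1 was nearer the treated values than control 4. Per1 was at 50.6 CPM in control 1, 6.51 in control 4 and 23.8 to 46.6 in treated libraries. Ciart was at 7.09, 2.89 and 7.95 to 19.7 CPM. Without control 4, 12 of the 19 were called, 8 higher and 4 lower, 63.2% beside 17.8% over all genes. Without treated 2 or treated 3, 2 were called, both lower (10.5% each, beside 3.51% and 1.4% over all genes). Without control 4 the log2 difference of Fabp1 was 1.90 (SE 0.33). The part of sampling time in the Fabp values was not tested.

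**Figure D5:**
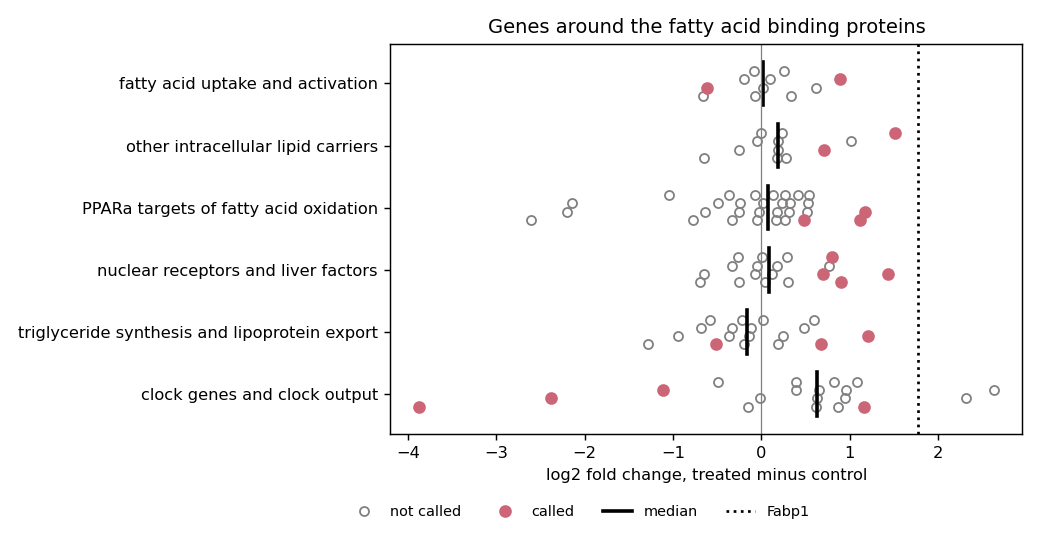
Log2 fold change (horizontal axis, treated minus control) of every tested gene in 6 gene lists, with called genes filled, list medians as bars and Fabp1 as a dotted line at 1.77. List medians lie between -0.17 and 0.62, and Fabp1 lies to the right of every called gene of these lists.

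The counts of called genes over the 7 lists changed with single libraries, as did the counts over all genes tested. Of 18 called with all libraries (16.5% beside 9.21% over all genes), the count was 35 without control 4 (31.8% beside 17.8%). It was 17 without control 1 (15.5% beside 8.58%). It was 9 without control 2 or control 3 (8.11% each, beside 4.49% and 3.04%). Without treated library 1, 2, 3 or 4 it was 11, 8, 3 and 10. These were 10.0%, 7.34%, 2.73% and 9.01% of the lists, beside 3.52%, 3.51%, 1.4% and 3.61% over all genes. Of 27 called genes named here other than members, 10 were called with the length and GC offsets. These were Acaa1a, Pparg, Npas2, Arntl, Per2 and Pecam1 and, from the search for likeness to Fabp1, Slc16a11, Ndufa3, Uqcr11 and Acad10. In all 8 fits that left out a library, 6 were called, namely Acaa1a, Npas2, Arntl, Slc16a11, Ndufa3 and Uqcr11. The 27 were named for a small adjusted p, for likeness to Fabp1 or with their values known, so these counts do not extend to other genes. No direction turned in the 513 alternative values of the 27 genes, and 179 of these values were no longer called.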

How the data were processed

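Poly-A RNA of 8 mouse liver libraries was sequenced, per the labels' protocols, with a kit that does not mark strand. The build GRCm38 and the tools HTSeq 0.13.5, HISAT2 and DESeq2 1.32.0 are listed, with no role, per the submitters' processing notes. Annotation release and strand setting were not given in the sources used here, so reads of genes overlapping on opposite strands cannot be told apart. The authors deposited raw read counts per gene and library. The deposited FPKM are those counts divided by a gene length and the library total, as checked on the values, and the length was recovered from them.

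Counts were tested in R 4.3.3 with edgeR 4.0.16: filterByExpr (minimum count 10, minimum total 15), TMM factors, and the robust quasi-likelihood test of treated against control, with Benjamini-Hochberg adjustment over all 12861 genes tested and calls under 0.05. SEs derive from the F statistic. The steps were tested on simulated data. The members and lists were chosen with earlier results of these data known. Named are the 5 members, up to 3 called genes per list by adjusted p (the 2 most abundant where none was called), and the 6 genes nearest to Fabp1 and 3 nearest to each other member in pattern. Names beyond this rule are marked in the text as chosen with their values known. Positions, transcripts and GC content came from GENCODE M21 on GRCm38. Alternatives were DESeq2 1.42.0 (size factors and its Wald test), library size alone, other filters, limma 3.58.1 on log2(FPKM + 1) and log2(FPKM + 0.1), a replicate block, offsets for length and GC content (loess span 0.4), and libraries left out. One gene that the naming rule takes is not reported here.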

Additional observations from a re-analysis of the deposited data

Results flagged for a closer look

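Fabp5 in control 4 was far from the other controls. The gap between its value, 61.5 CPM, and the next highest, 12.0 CPM, was 0.891 of the range of the 4 controls, above the 95% critical value of 0.829 for 4 samples. For normally distributed values, chance passes that value in about 1 in 20 groups, and 10 groups (5 genes in 2 groups) were examined. The gap was taken on CPM and not on the log2 scale used for the differences, and the flag depends on that choice.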

How the results depend on the processing

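Fabp1 kept its direction in all 19 alternative fits, with log2 differences from 1.41 (length and GC offsets) to 2.02 (without controls 2 and 4), and from 1.54 to 1.90 with 1 library left out. It was chosen on this contrast, and its highest control value, 971 CPM, lay below its lowest treated value, 1991 CPM. Its direction was therefore little open to change, and nothing is read from its being kept. Fabp4 and Fabp7 kept their direction in all 19, while Fabp2 and Fabp5 turned in 2 each. The count of called genes, 1184, was 2160 with the DESeq2 Wald test, 322 with limma on log2(FPKM + 1) without a filter, 537 with length and GC offsets, and 183 to 2330 with 1 library left out. Over the 7 lists these counts were 28, 5, 6 and 3 to 35, against 18. They were 25.0%, 4.27%, 5.5% and 2.73% to 31.8% of the lists. Over all genes the shares were 15.9%, 1.4%, 4.18% and 1.4% to 17.8%. The cause of these shifts was not tested. Same-numbered libraries of the groups deviated together weakly at most (correlations across genes 0.177, 0.059, -0.012 and 0.07 for numbers 1 to 4). Between libraries of different numbers the correlations ran from -0.207 to 0.176. The labels do not say that the numbers pair animals, and they were not taken to do so. With the replicate block, 944 genes were called, 12 of them in the lists, and the Fabp1 difference was 1.79 (SE 0.22, against 0.30 without the block). Fabp5 rose with library number in both groups. Its difference was -0.02 (SE 0.33) with the block, against -0.50 (SE 0.77) without it. Low counts, down to 69 reads for Fabp4, limit what could be seen for that gene. The length of the main transcript, chosen after seeing the data, moved the log2 ratio of Fabp5 to Fabp7 in controls from -0.51 to 0.71.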
